A study of Bombyx mori with 4 samples.

Results

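In silkworm prothoracic glands held in culture with prothoracicotropic hormone (PTTH), 123 of 14622 measured loci stood well above the untreated glands after 3 h although they had been close to them after 1 h. They are called late loci here. A locus belonged to them when 5 conditions on its FPKM, the fragments counted on a locus divided by its transcript length and the depth of the library, held together. Its mean over the 4 libraries was at least 1 FPKM, which left 8547 tested loci. At 3 h its FPKM + 1 was at least 2-fold higher with PTTH, and the authors' confidence intervals of the 3 h libraries lay apart. At 1 h the same ratio was within 1.5-fold in either direction, and the 3 h PTTH library was at least 1.5-fold above the 1 h PTTH library. The late loci were thus chosen by the FPKM values and limits of all 4 libraries, and the levels and ratios of the late loci are given as a description, without a test.

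The prothoracic gland turns dietary sterols into ecdysteroids, the steroids that trigger moulting and metamorphosis in insects. Its main stimulus is PTTH, a peptide from the brain that acts in silkworm and fruit fly through the receptor tyrosine kinase Torso and the Ras, Raf and ERK kinase cascade. Genes of steroid synthesis and genes for transcription factors are among its known targets in the gland. The table pairs no locus with a gene name, so late loci are described by position, level and neighbourhood, and no role is given to any of them. Defining markers of the gland and of other tissues could not be checked for the same reason.

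Glands came from larvae of a Bombyx mori racial hybrid at day 4 of the fifth instar. After 30 min of pre-incubation in Grace's insect medium, each gland of a pair went into medium with or without 10 nM recombinant PTTH for 1 or 3 h. This gave 4 groups, the 1 h control, 1 h PTTH, 3 h control and 3 h PTTH glands, all from the same hybrid. Each was 1 library of RNA pooled from 2 preparations of 12 to 18 larvae, so no group had a replicate and different larvae may separate the times. In such bulk RNA, fewer cells with a transcript and less transcript per cell cannot be told apart.

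The authors' limits imply between 8130000 fragments over all loci, in the 1 h control, and 10290000, in the 3 h PTTH library. These implied fragments assume that the upper limit lies 2 Poisson standard deviations above the value. Over all tested loci the median log2 ratio with PTTH was -0.07 at 1 h and -0.19 at 3 h. How the libraries were scaled to each other is not known, so such a shift cannot be told from an offset of scaling.

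Of the 8547 tested loci, 205 (2.40%) were at least 2-fold higher with PTTH at 3 h with intervals apart. At 1 h, 139 of the 205 had been within 1.5-fold of the control, 60 had been at least 1.5-fold higher and 6 at least 1.5-fold lower. Among the 139, 16 had no 1.5-fold difference between the 3 h PTTH library and the 1 h PTTH library and were left out, which gives the 123 late loci (1.44%). They lay on 62 of the 354 scaffolds with tested loci, 31 scaffolds holding 1 of them and none more than 5.

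**Figure D1:**
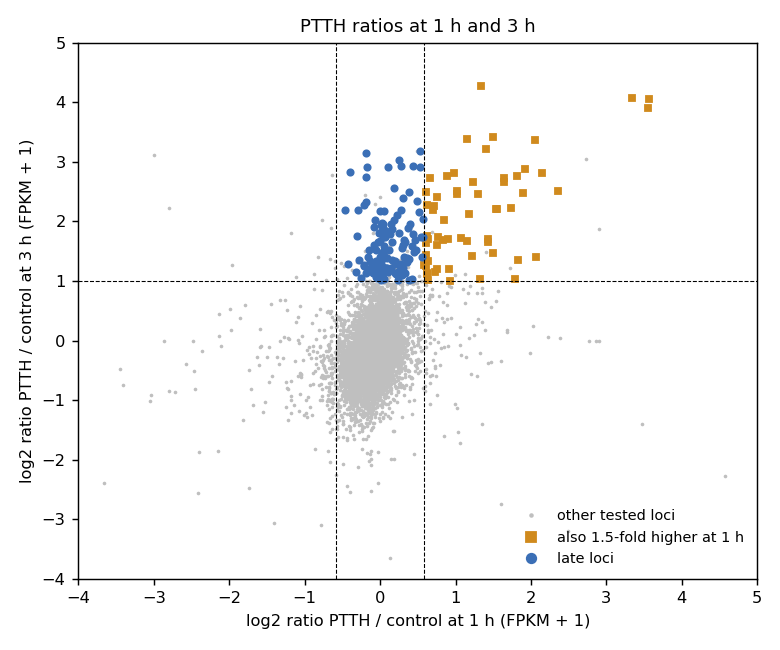
Log2 ratios of FPKM + 1 with PTTH over control at 1 h (x axis) and 3 h (y axis) for tested loci; 2 loci outside the axes are not drawn. The 123 late loci (circles) lie above the dashed 2-fold line and between the dashed 1.5-fold lines, and the 60 loci also higher at 1 h (squares) lie to their right.

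As a group the late loci were moderately expressed, at similar median levels in 3 libraries and a higher one in the 3 h PTTH library. Their median level was 10.9 FPKM in the 1 h control, 11.7 FPKM in the 1 h PTTH library, 13.0 FPKM in the 3 h control and 39.8 FPKM in the 3 h PTTH library. In the 3 h PTTH library, 16 were under 10 FPKM, 75 between 10 and 100 FPKM, 28 between 100 and 1000 FPKM and 4 above 1000 FPKM. Of the late loci 13.0% were thus under 10 FPKM and 26.0% at 100 FPKM or more there, against 42.2% and 8.82% of tested loci. The rule used that library. Together they held 0.743% of the summed FPKM of the 1 h control, 0.874% of the 1 h PTTH library, 0.673% of the 3 h control and 2.09% of the 3 h PTTH library. In 121 of the 123 the lower limit in the 3 h PTTH library was above the upper limits of the other 3 libraries, which was so in 7.53% of tested loci. The log2 ratio at 3 h ran from 1.01 to 3.19 with a median of 1.52. By FPKM + 1, 26 late loci were at least 4-fold higher, against 0.796% of tested loci. Between the 1 h PTTH library and the 3 h PTTH library the median log2 ratio was 1.51 with a highest value of 4.70. By FPKM + 1, 33 late loci differed at least 4-fold, against 0.772% of tested loci. The rule used both contrasts, and nothing is read from these shares.

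The 10 late loci with the largest 3 h ratio divide into loci with a steady control and loci whose control was lower at 3 h. The largest ratio belonged to XLOC_010808, at nscaf3003 2253955 to 2266970. It had 5.72 FPKM (limits 4.84 to 6.61) in the 1 h control, 8.73 FPKM (7.68 to 9.79) in the 1 h PTTH library, 2.94 FPKM (2.32 to 3.55) in the 3 h control and 34.9 FPKM (32.8 to 36.9) in the 3 h PTTH library. All 4 intervals lay apart, the 3 h PTTH library being the highest and the 3 h control the lowest. Its 3 h log2 ratio was 3.19 ± 0.12 (counting SE), an 11.9-fold difference in FPKM, and its 3 h control was 1.95-fold below its 1 h control.

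XLOC_006465, at nscaf2853 1131823 to 1133652, was second. It had 36.3 FPKM (27.4 to 45.2) in the 1 h control, 31.7 FPKM (23.8 to 39.7) in the 1 h PTTH library, 11.7 FPKM (7.05 to 16.3) in the 3 h control and 112 FPKM (97.2 to 126) in the 3 h PTTH library. The 1 h libraries overlapped, and the 3 h control lay 3.11-fold below the 1 h control. The 3 h log2 ratio was 3.15 ± 0.28, a 9.56-fold difference.

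The locus at nscaf3066 1923972 to 1924524 had nearly the same level in 3 libraries and a far higher one in the fourth. It stood at 15.5 FPKM (12.7 to 18.4) in the 1 h control, 18.6 FPKM (15.7 to 21.6) in the 1 h PTTH library, 16.7 FPKM (13.8 to 19.6) in the 3 h control and 144 FPKM (136 to 152) in the 3 h PTTH library. The 3 lower intervals overlapped, and the 3 h ratio was 8.63-fold, with a log2 ratio of 3.04 ± 0.12. It was the largest ratio among the late loci with a steady control.

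Short loci on nscaf3076 and nscaf2883 had the mixed pattern of the leading locus. At nscaf3076 59354 to 59858 the values were 28.6 FPKM in the 1 h control, 38.9 FPKM in the 1 h PTTH library, 15.7 FPKM in the 3 h control and 126 FPKM in the 3 h PTTH library. At nscaf2883 777620 to 778947 they were 28.3, 41.4, 17.8 and 141 FPKM in the same order. In both, the 1 h PTTH library was already above the 1 h control with intervals apart, and the 3 h control was below the 1 h control with intervals apart. The 3 h log2 ratios were 2.93 ± 0.13 at nscaf3076 and 2.91 ± 0.11 at nscaf2883.

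Of the remaining loci among the 10, those at nscaf2970 1353077 to 1353314 and nscaf2887 1527341 to 1529161 were close to absent in all but the 3 h PTTH library. The first had 0.412 FPKM in the 1 h control, 0.718 FPKM in the 1 h PTTH library and 0.335 FPKM in the 3 h control, each from at most 1.0 implied fragments, and 9.14 FPKM (4.25 to 14.0) from 14.0 implied fragments in the 3 h PTTH library. With so few fragments no fold is given, and its log2 ratio of 2.93 ± 0.62 had the largest counting error of all late loci. The second had 0.929 FPKM (0.171 to 1.69), 0.714 FPKM (0.0759 to 1.35), 1.76 FPKM (0.745 to 2.78) and, in the 3 h PTTH library, 19.7 FPKM (16.4 to 23.0), a log2 ratio of 2.91 ± 0.29. At nscaf3022 201589 to 211571 the libraries had 2.86, 1.94, 3.69 and 32.4 FPKM, the 1 h PTTH library being the lowest, and the 3 h ratio was 8.80-fold.

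**Figure D2:**
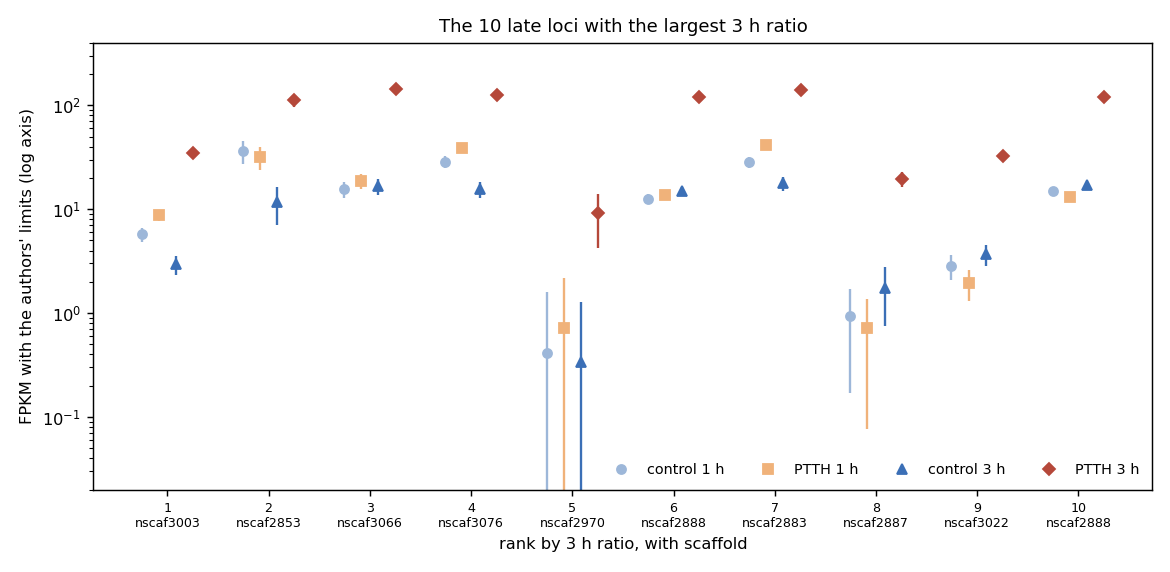
FPKM on a log axis with the authors' limits in the 4 libraries for the 10 late loci with the largest 3 h ratio, labelled by rank and scaffold; lower limits under 0.02 are cut at the axis. The 3 h PTTH library is the highest library at each, and the 3 h control is below the 1 h control with intervals apart at ranks 1, 2, 4 and 7.

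The other 2 of the 10, at ranks 6 and 10, lie next to each other on nscaf2888, 3387 bases apart, and carried almost the same values. At 7341245 to 7356400 the libraries had 12.6 FPKM (11.3 to 13.9) in the 1 h control, 13.6 FPKM (12.3 to 14.9) in the 1 h PTTH library, 15.0 FPKM (13.6 to 16.4) in the 3 h control and 120 FPKM (116 to 123) in the 3 h PTTH library. At 7359787 to 7380263 they had 15.0 FPKM (13.6 to 16.3), 13.0 FPKM (11.8 to 14.2), 16.98 FPKM (15.6 to 18.3) and 119 FPKM (116 to 123). The 3 h log2 ratios were 2.91 ± 0.07 and 2.74 ± 0.06, at 7.97-fold and 7.04-fold. The 3 h PTTH values rest on 4121 and 4572 implied fragments. Whether both belong to 1 transcription unit was not tested, and this holds for all neighbouring loci below.

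The most abundant late loci had smaller ratios but many more transcripts. The highest in the 3 h PTTH library was nscaf2674 830261 to 832933, with 1017 FPKM (875 to 1160) in the 1 h control, 1053 FPKM (917 to 1189) in the 1 h PTTH library, 685 FPKM (593 to 777) in the 3 h control and 2049 FPKM (1868 to 2229) in the 3 h PTTH library. Its 2.99-fold ratio at 3 h combines a 1.95-fold higher PTTH library and a 1.48-fold lower control than at 1 h. Its values rest on 204.5 implied fragments in the 1 h control and 514 in the 3 h PTTH library. At nscaf2853 1234893 to 1237080 these were 15843 and 35831 at lower FPKM, so the order by FPKM is not an order by fragments. At nscaf2176 1202422 to 1208982 the values were 395, 588, 443 and 1489 FPKM. With the largest 1 h ratio of all late loci, a log2 ratio of 0.57 ± 0.02, it was just under the 1.5-fold bound and was already above the control at 1 h with intervals apart. The loci at nscaf2853 1234893 to 1237080 and nscaf2891 917170 to 922889 had 615 and 442 FPKM in the 3 h control and 1247 and 1158 FPKM in the 3 h PTTH library. The fifth, nscaf2970 458206 to 458881, had 378 FPKM in the 1 h control, 422 FPKM in the 1 h PTTH library, 375 FPKM in the 3 h control and 961 FPKM in the 3 h PTTH library. In these 5 the untreated glands already carried 375 FPKM or more (rounded), so late loci include loci of high as well as very low FPKM.

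The 5 further loci that were at least 4-fold higher at 3 h in FPKM + 1 are named because they complete the 26. The one at nscaf2797 1186007 to 1201273 had 4.57, 6.24, 4.50 and 30.0 FPKM in the 1 h control, the 1 h PTTH library, the 3 h control and the 3 h PTTH library. At nscaf2529 2154829 to 2156529 the values were 20.4, 21.3, 19.7 and 92.0 FPKM. At both the other 3 libraries lay close together and the 3 h PTTH library far above them. The locus at nscaf1681 1661871 to 1673460 had 26.9, 38.9, 36.0 and 165 FPKM, and the one at nscaf2674 5609603 to 5610047 had 25.3, 29.6, 19.9 and 88.9 FPKM. The last, nscaf1898 15166043 to 15182642, had 5.01, 7.88, 7.06 and 32.3 FPKM. The loci on nscaf1681 and nscaf1898 were above the control at 1 h by log2 ratios of 0.52 ± 0.07 and 0.56 ± 0.14.

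The course of the control over time is the 3 h control against the 1 h control. It is tied to the rule through the other 3 ratios, so its values are a description. In 98 of the 123 late loci (79.7%) the control at 3 h was within 1.5-fold of that at 1 h, against 84.8% of tested loci. In 9 it was at least 1.5-fold lower and in 16 at least 1.5-fold higher, against 5.35% and 9.85% of tested loci, shares close to those of the late loci. Which of the last pair of counts is larger depends on the scaling, since with a fixed total per library 15 were lower and 9 higher. The 3 h control was above the 1 h control with intervals apart in 26 late loci and below it in 19, against 25.0% and 12.8% of tested loci. In the 98 steady loci the median level was 11.1 FPKM in the 1 h control, 11.7 FPKM in the 1 h PTTH library, 11.3 FPKM in the 3 h control and 34.6 FPKM in the 3 h PTTH library.

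**Figure D3:**
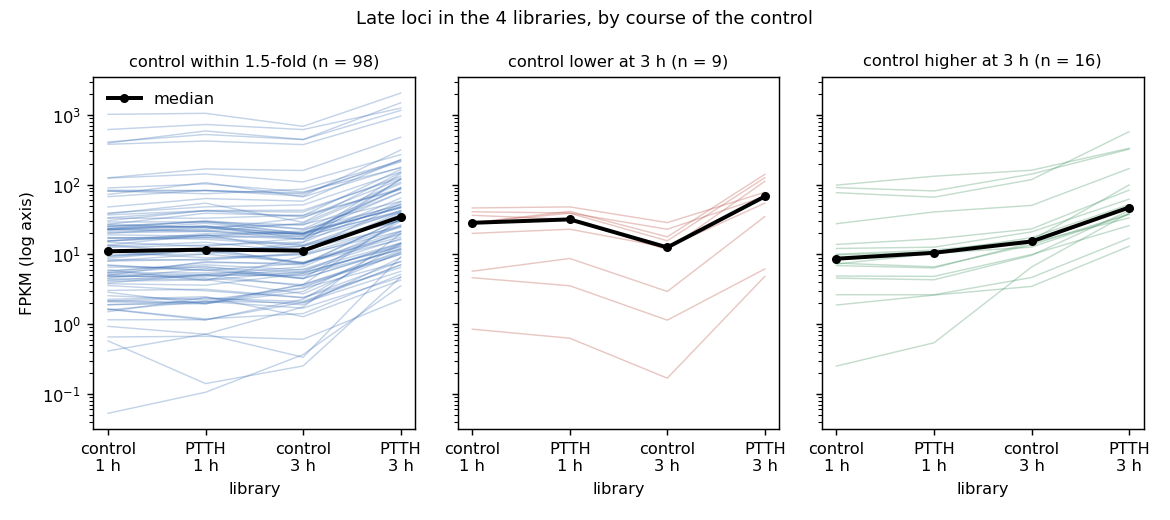
FPKM on a log axis in the 4 libraries for each late locus (thin lines) and their median (thick line), split into 98 loci with a control within 1.5-fold over time, 9 with a lower and 16 with a higher control at 3 h. The median of the 98 steady loci runs from 11.1 FPKM in the 1 h control to 34.6 FPKM in the 3 h PTTH library.

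In the 9 loci with a lower control, the median was 28.3 FPKM in the 1 h control, 31.7 FPKM in the 1 h PTTH library, 12.6 FPKM in the 3 h control and 67.7 FPKM in the 3 h PTTH library. The 3 with the largest 3 h ratio among them are the loci on nscaf3003, nscaf2853 and nscaf3076 described above. At others the control differed over time at least as much as, or nearly as much as, the PTTH libraries did. At nscaf3045 1453923 to 1454938 the control went from 4.63 FPKM (2.24 to 7.01) to 1.14 FPKM (0 to 2.28), resting on 4.0 implied fragments, while the PTTH libraries had 3.55 FPKM and 6.18 FPKM. At nscaf3034 2997872 to 2999397 the values were 40.8 FPKM in the 1 h control, 39.2 FPKM in the 1 h PTTH library, 22.9 FPKM in the 3 h control and 67.7 FPKM in the 3 h PTTH library. The locus at nscaf2575 3021214 to 3025964 had 46.3, 47.9, 28.5 and 77.6 FPKM, so its PTTH libraries differed 1.62-fold over time and its control 1.62-fold in the other direction.

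In the 16 loci with a higher control, culture alone and culture with PTTH pointed the same way, and the PTTH libraries differed more. For the 16, the rule and the choice by control course fix both, so neither is a finding. Their median log2 ratio over time was 0.74 in the controls and 2.21 with PTTH. The largest 3 h ratio among them, a log2 ratio of 2.56, belonged to nscaf3066 1997102 to 2009252, with 10.1, 11.5, 15.9 and 98.8 FPKM. Next, at 2.40, came nscaf2953 445421 to 446159, with 0.250 FPKM (0 to 0.539) in the 1 h control, 0.539 FPKM (0.131 to 0.947) in the 1 h PTTH library, 6.59 FPKM (5.14 to 8.03) in the 3 h control and 38.9 FPKM (35.5 to 42.3) in the 3 h PTTH library. It was at 3.0 implied fragments in the 1 h control and so hardly present in either 1 h library. The third was nscaf2865 1741028 to 1742307, with 76.7, 66.0, 118 and 573 FPKM. It had wide intervals, 24.1 to 129 FPKM in the 1 h control and 446 to 700 FPKM in the 3 h PTTH library, from 8.5 and 81.5 implied fragments.

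**Figure D4:**
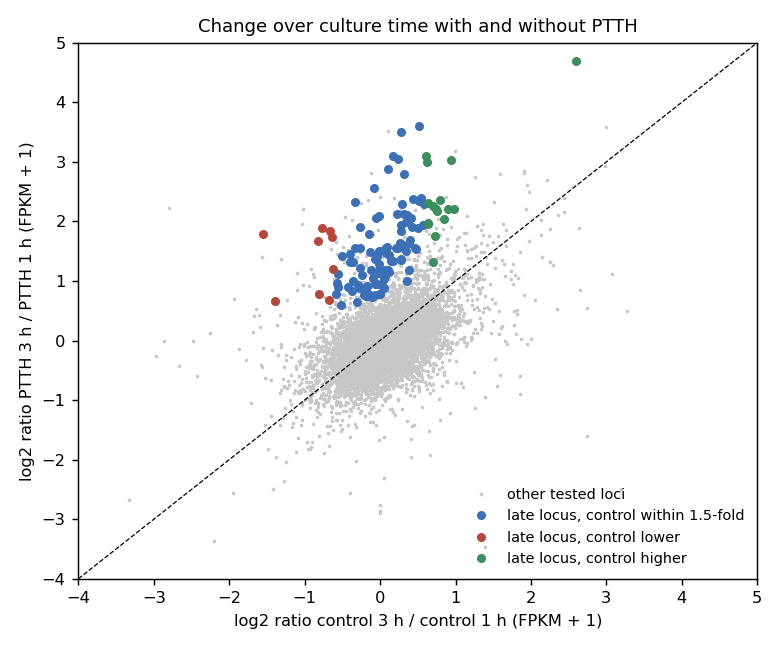
Log2 ratios of FPKM + 1 over culture time without PTTH (x axis) and with PTTH (y axis) for tested loci, with late loci coloured by the course of their control; 6 loci outside the axes are not drawn. All 123 late loci lie above the dashed line of equal ratios, as the rule requires. The point at upper right is the locus at 2.60 without and 4.70 with PTTH.

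The word late describes the size of the difference, and some of these loci were already shifted at 1 h. The 1 h PTTH library was above the 1 h control with intervals apart in 27 of the 123, below it in 2, and overlapped it in 94. Of all tested loci 3.32% were above and 10.3% below by the same measure, and of those within 1.5-fold at 1 h 2.44% were above and 9.87% below. By sign alone, 82 late loci (66.7%) were higher with PTTH at 1 h, against 32.7% of tested loci and 32.2% of those within 1.5-fold. The median 1 h log2 ratio was 0.07 in the late loci and -0.07 in all tested loci. The rule bounded the 1 h ratio on both sides but not its sign, and it also set a floor on the 3 h PTTH library over the 1 h PTTH library. The 1 h libraries share no library with the 3 h ratio, but since the 1 h contrast entered the rule this lean is a description only.

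The gap between the times was taken as the 3 h minus the 1 h log2 ratio. It ran from 0.62 to 3.34 with a median of 1.39 in the late loci, against a median of -0.11 in all tested loci. The rule bounds both ratios, so a positive gap in the late loci is no finding. The 60 loci that were higher at 3 h and already 1.5-fold higher at 1 h serve as a comparison. Their median 3 h log2 ratio was 2.15 against 1.52, and their median level in the 3 h PTTH library was 98.4 FPKM against 39.8 FPKM. Over time with PTTH the late loci had a median log2 ratio of 1.51 and the 60 loci one of 0.92. The classes are separated by the rule, and these differences were not tested.

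Locus span was not part of the rule. Late loci had a median span of 5600 bases on the scaffold, with a range from 171 to 25998, and tested loci one of 4524 bases. At least 10000 bases were spanned by 44 late loci (35.8%) and 23.4% of tested loci, and under 1000 bases by 21 (17.1%) and 14.1%. The 60 loci already higher at 1 h were shorter, with a median span of 1903 bases. With no p-value available over loci, these are descriptions.

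The longest late loci were modestly expressed or low. The longest, nscaf2970 1271129 to 1297127, had 9.25 FPKM (8.34 to 10.2) in the 1 h control, 11.4 FPKM (10.5 to 12.4) in the 1 h PTTH library, 10.9 FPKM (9.99 to 11.9) in the 3 h control and 53.4 FPKM (51.3 to 55.5) in the 3 h PTTH library. The 3 h PTTH library stood 4.88-fold above its control, while the other 3 libraries differed little. The one at nscaf2833 154579 to 179623 had 1.65, 1.18, 1.42 and 5.15 FPKM, and nscaf2674 2842885 to 2867077 had 6.0, 4.22, 9.50 and 24.5 FPKM.

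The shortest late loci rested on few fragments. At nscaf1898 1728341 to 1728512 the values were 82.8 FPKM (40.1 to 126), 82.6 FPKM (42.5 to 123), 68.5 FPKM (38.2 to 98.7) and 313 FPKM (239 to 387), from 15.0, 17, 20.5 and 71.0 implied fragments. Its first 3 intervals overlapped almost fully. At nscaf2855 5176845 to 5177058 they were 7.99, 8.51, 10.5 and 40.0 FPKM, the 3 h PTTH interval of 27.7 to 52.2 FPKM lying above the control interval of 4.30 to 16.7 FPKM. In all, 19 late loci had under 20 implied fragments in at least 1 library, 3 of them also in the 3 h PTTH library, and none was listed at 0 in a library.

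Late loci often lay beside each other. For 32 of the 123 (26.0%) the next tested locus on the scaffold, on either side, was also a late locus. Of the tested loci that are not late loci, 2.36% had a late locus beside them. The 32 formed 14 runs, 10 of 2 loci and 4 of 3 loci, with gaps of 1847 to 72578 bases between their members. Counting each run once leaves 105 separate stretches. In 9 of the 14 runs the identifiers are consecutive in the table. Position was not used by the rule, but neighbouring loci may share a transcript, and such loci are not independent.

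The run on nscaf2888 extends the pair described above by a low locus at 7387134 to 7389526. This locus had 0.0527 FPKM in the 1 h control, 0.106 FPKM in the 1 h PTTH library, 0.366 FPKM (0.107 to 0.625) in the 3 h control and 3.53 FPKM (2.76 to 4.30) in the 3 h PTTH library. Its mean of 1.01 FPKM was the lowest of all late loci, and it would be missed by a slightly higher filter. On the other side of the pair, nscaf2888 7332539 to 7334003 had 41.0, 74.2, 23.6 and 98.7 FPKM and was no late locus. It was higher with PTTH at 1 h too, with a log2 ratio of 0.84, and its 3 h PTTH library was under 1.5-fold above the 1 h PTTH library. Including it, 3 tested loci within 100 kb of the run were not late loci, with 3 h log2 ratios of 0.88 to 2.02. Their 1 h log2 ratios were 0.51 to 1.35, so these neighbours leaned toward PTTH at both times.

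On nscaf2852 the 3 loci of a run had matching courses and many fragments. The first, 1791482 to 1793125, had 22.8 FPKM (18.2 to 27.3) in the 1 h control, 21.4 FPKM (17.2 to 25.6) in the 1 h PTTH library, 28.0 FPKM (23.2 to 32.8) in the 3 h control and 108 FPKM (99.1 to 117) in the 3 h PTTH library. The second, 1813686 to 1828774, had 12.1, 12.7, 21.0 and 61.9 FPKM. The third, 1832974 to 1853050, had 23.0, 22.7, 33.4 and 119 FPKM. In each, the 1 h libraries overlapped, the 3 h control was somewhat higher and the 3 h PTTH library was the highest by 2.95-fold to 3.86-fold over its control. The other 4 tested loci within 100 kb had 3 h log2 ratios between -0.95 and 0.44, so the difference ended at the borders of the run.

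On nscaf3066 the leading locus at 1923972 to 1924524 is followed after 72578 bases by the locus at 1997102 to 2009252 and then by 2016661 to 2017844. The last had 1.63 FPKM (0.710 to 2.55) in the 1 h control, 1.14 FPKM (0.403 to 1.89) in the 1 h PTTH library, 2.27 FPKM (1.21 to 3.33) in the 3 h control and 14.0 FPKM (11.4 to 16.5) in the 3 h PTTH library. All 3 were between 6.15-fold and 8.63-fold higher at 3 h, and no other tested locus lay within 100 kb.

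The run on nscaf2970 joins the longest late locus, 1271129 to 1297127, to low ones at 1346105 to 1348528 and 1353077 to 1353314. The middle one had 0.574, 0.140 and 0.251 FPKM in the 1 h control, the 1 h PTTH library and the 3 h control, from at most 2.0 implied fragments each, and 4.72 FPKM (2.55 to 6.89) in the 3 h PTTH library. Its neighbour at 1353077 has been described, and both are among the 3 late loci with under 20 implied fragments in the 3 h PTTH library. The 8 other tested loci within 100 kb ranged from -1.04 to 0.72 in 3 h log2 ratio.

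**Figure D5:**
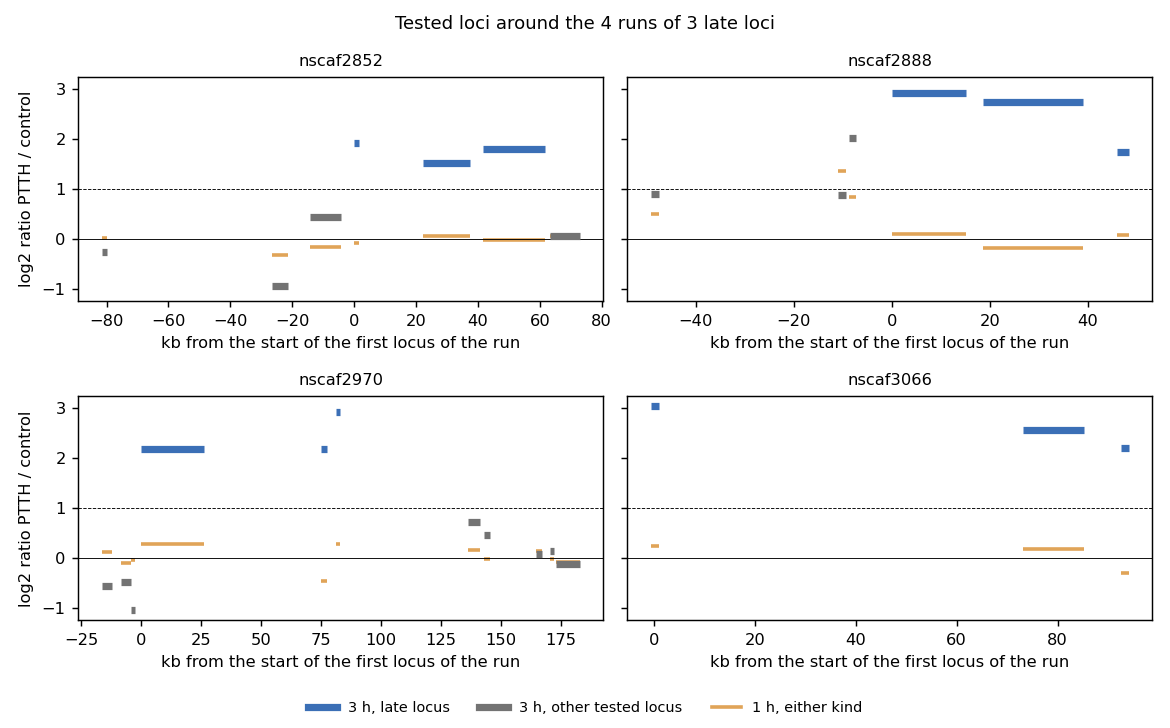
Log2 ratios of PTTH over control at 3 h (thick bars) and 1 h (thin bars) for tested loci within 100 kb of the 4 runs of 3 late loci, against distance from the start of the run in kb; loci under 1.5 kb are drawn 1.5 kb wide and the dashed line is 2-fold. Late loci lie above that line at 3 h and between -0.46 and 0.28 at 1 h. At 3 h 1 other locus, on nscaf2888, also lies above it, and the 1 h bar of another locus there does so at 1.35.

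Among the 10 runs of 2, nscaf3022 held 2 separate ones. In the first, 226782 to 228234 follows the locus at 201589 to 211571 and had 4.56, 4.32, 9.67 and 42.2 FPKM, a 4.37-fold difference at 3 h. In the second, 1075950 to 1097436 had 1.15, 1.16, 2.04 and 7.01 FPKM and 1103244 to 1106694 had 2.55, 2.21, 3.32 and 11.4 FPKM. Both loci of the second run were 3.43-fold higher at 3 h, and their 1 h intervals overlapped.

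On nscaf2847 the loci 1211000 to 1213528 and 1215375 to 1228476 are 1847 bases apart. The former had 22.5, 25.2, 16.7 and 64.1 FPKM and the latter 19.98, 22.9, 12.6 and 54.2 FPKM. At both the 3 h control was below the 1 h control with intervals apart. On nscaf2853 the locus before XLOC_006465, at 1104435 to 1118380, had 33.5, 41.9, 40.4 and 132 FPKM. Its control was steady, unlike that of XLOC_006465, so neighbours did not always share the course of the control.

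The pair on nscaf2937 was low to moderate, with 1.88, 2.61, 3.47 and 13.0 FPKM at 1023553 to 1029153 and 9.82, 10.1, 14.8 and 57.0 FPKM at 1043909 to 1048681. On nscaf2529 a long locus at 4416629 to 4434505 had 29.1, 29.3, 26.3 and 103 FPKM, and the short one behind it, 4437391 to 4437635, had 38.2, 54.2, 28.8 and 149 FPKM. The short one rests on 10.5 implied fragments in the 3 h control and its 3 h PTTH interval ran from 104 to 195 FPKM. On nscaf2789 the values were 67.2, 82.9, 73.2 and 226 FPKM at 1049625 to 1050519 and 20.02, 24.4, 19.1 and 48.2 FPKM at 1052698 to 1059199. Levels differed within the runs on nscaf2937 and nscaf2789. On nscaf2529 the intervals of the long and the short locus overlapped in each library. The 3 h PTTH library was the highest at every locus of these runs.

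The remaining runs were weaker or low. On nscaf2810 the locus 485733 to 505362 had 4.89, 4.83, 9.96 and 25.8 FPKM, and 515915 to 517346 had 2.08, 1.99, 3.25 and 7.83 FPKM. The 3 h control was 2.04-fold above the 1 h control at the first, and the control intervals overlapped at the second. On nscaf3026, 4528142 to 4539679 had 0.654, 0.669, 0.606 and 2.24 FPKM and 4598293 to 4598671 had 0.846, 0.628, 0.168 and 4.84 FPKM, the latter from 0.5 implied fragments in the 3 h control.

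On nscaf1898, the short locus at 1728341 to 1728512 is followed by 1732097 to 1732925, with 9.84, 10.7, 17.3 and 51.7 FPKM. Behind it, 1744377 to 1746185 had 9.83, 15.6, 15.1 and 76.8 FPKM, from 2.5, 4.5, 6.0 and 24.5 implied fragments. Its 1 h log2 ratio of 0.62 ± 1.05 kept it out of the late loci, though its 1 h intervals overlapped. Next, 1755440 to 1760048 was a late locus again, with 13.9, 16.6, 23.2 and 83.5 FPKM. The 4 consecutive tested loci were thus all at least 2-fold higher at 3 h on this stretch.

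Tested loci beside a late locus that were not late loci themselves numbered 199. Of these, 8 (4.02%) were at least 2-fold higher with PTTH at 3 h with intervals apart, against 0.900% of the 8225 other tested loci outside the late set. Their median 3 h log2 ratio was -0.08 against -0.20, and 4 (2.01%) were at least 2-fold lower against 3.53%. All 8 failed the rule at 1 h, where 5 were already higher by 1.5-fold and 3 lower by as much, and in 2 of the 8 the 3 h PTTH library was also under 1.5-fold above the 1 h PTTH library. On nscaf2674 such loci enclose a late locus: 5596413 to 5598183 had 25.1, 42.1, 21.2 and 105 FPKM and 5627420 to 5640488 had 31.1, 51.0, 26.4 and 123 FPKM, while the late locus 5609603 to 5610047 between them stood at 29.6 FPKM in the 1 h PTTH library against 25.3 FPKM in its control. On nscaf2887 the neighbour 1482865 to 1484888 of the late locus 1527341 to 1529161 had 1.43, 0.570, 1.62 and 16.9 FPKM. It has the same late course and was left out by its low 1 h PTTH value.

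The thresholds cut through a continuous range. Just inside the 2-fold bound at 3 h lay nscaf3026 4528142 to 4539679, nscaf2853 1234893 to 1237080 and nscaf2815 167531 to 169020, with log2 ratios of 1.01, 1.02 and 1.02. Just outside, with all other conditions met, lay nscaf2795 1348299 to 1352005, nscaf2930 1770526 to 1773761 and nscaf2623 472189 to 479209, with 0.998, 0.995 and 0.992. Between 1.5-fold and 2-fold, 116 further loci met the other conditions, nearly as many as the late loci themselves. At the upper 1 h bound nscaf2176 1202422 to 1208982 was inside at 0.57 and nscaf2529 1054545 to 1056231 outside at 0.60, and at the lower bound nscaf2970 1346105 to 1348528 was inside at -0.46 and nscaf3063 2169612 to 2169891 outside at -0.59. For the 3 h PTTH library over the 1 h PTTH library, nscaf2886 387959 to 399278 was inside at 0.603 and nscaf2924 751975 to 752290 outside at 0.565. The locus on nscaf2888 with a mean of 1.01 FPKM was just inside the filter, and nscaf2847 5166199 to 5175324 with 0.941 FPKM was 1 of 4 loci that only the filter kept out. Overlapping intervals alone kept out 14 loci, the nearest being nscaf2953 3406641 to 3407276, while nscaf2888 9423673 to 9425868 was the closest inside, with an upper control limit of 19.5 FPKM and a lower PTTH limit of 20.7 FPKM at 3 h.

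The rule for named loci covers 47 of the 123. The other 76 met the same late rule at mostly smaller size, and their control log2 ratios over time ran from -1.39 to 0.985. Their levels in the 3 h PTTH library ran from 4.27 to 479 FPKM with a median of 33.4 FPKM, and in the 3 h control from 1.14 to 161 FPKM with a median of 12.9 FPKM. Their 3 h log2 ratios had a median of 1.33 and reached 2.49, and their 1 h log2 ratios lay between -0.31 and 0.56.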

How the data were processed

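The members and the lists were chosen with earlier results of these data known. RNA of 4 libraries was sequenced from paired-end mRNA libraries, per the labels' protocols. The submitters' processing notes name CASAVA 1.8.0, TopHat and SAMtools, and the table's name mentions Cuffdiff. The authors deposited FPKM values with lower and upper limits for 14622 loci. Not given in the sources used here are the build of the genome, the annotation, the kind of limit, how libraries were scaled to each other, and whether starts count from 0 or 1. Positions follow the table, and no sequence is shown.

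From these, log2 ratios were computed as log2(FPKM + 1) for loci averaging at least 1 FPKM over the libraries. The added 1 shrinks the ratios of low loci. Plain folds printed for a locus are ratios of FPKM, while bounds such as at least 4-fold apply to FPKM + 1. With 1 library per group there is no test. Among values under 20 implied fragments, 82.6% to 88.5% per library were multiples of 0.5 within 0.02. Counting SEs come from these fragments and, like the limits, cover counting error only. Neighbours are consecutive tested loci on a scaffold. None of the 14622 identifiers matched the 18210 RefSeq genes of assembly ASM3026992v2, so 0 have names, and the gene lists set up for named genes were not used.

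Loci named by rule are the 10 with the largest 3 h ratio, the 5 highest in the 3 h PTTH library, the 3 leading each control course, those next to the 2-fold bound, the 3 longest and 3 shortest, and the runs; others were chosen after their values were seen. The rule was run on simulated data that held counting error only and planted 4-fold differences. Such data do not cover variation between larvae or preparations, or smaller differences. Alternatives were other pseudocounts, filters, scalings and bounds. Python 3.11.15, numpy 2.4.6, pandas 2.3.3 and matplotlib 3.10.9 were used.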

Additional observations from a re-analysis of the deposited data

Results flagged for a closer look

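At 2 late loci the hormone libraries stood on opposite sides of their controls at the times, with intervals apart at each. The difference between the times was not tested. Every late locus is above its control at 3 h by the rule. Below the control at 1 h with intervals apart were 1.63% of late loci, against 10.3% of tested loci. Of tested loci within 1.5-fold at 1 h the share was 9.87%. At nscaf2674 2842885 to 2867077, the 1 h PTTH library had 4.22 FPKM (3.78 to 4.65) against 6.0 FPKM (5.47 to 6.54), and the 3 h PTTH library had 24.5 FPKM (23.4 to 25.5) against 9.50 FPKM (8.85 to 10.2), a difference of 1.70 between the log2 ratios. At nscaf2529 1595468 to 1602833, the 1 h PTTH library had 81.2 FPKM (78.3 to 84.1) against 90.6 FPKM (87.3 to 93.9), and the 3 h PTTH library had 322 FPKM against 142 FPKM, a difference of 1.34. The 1 h log2 ratio at nscaf2529 was -0.16, against a median of -0.07 over all tested loci. Whether its 1 h intervals stay apart under another scaling was not tested. Both loci also had a higher control at 3 h than at 1 h.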

How the results depend on the processing

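No paired analysis was possible because each group has 1 library. With 1.5-fold in place of 2-fold at 3 h the rule gave 239 loci, and with 4-fold 26. The other 12 settings gave 91 (pseudocount 5 FPKM) to 177 loci (median centring), sharing 84 and 116 of the 123. Centring moves the median 3 h log2 ratio of all tested loci by 0.19, and upper-quartile scaling, which gave 155, to -0.08. A pseudocount of 5 FPKM lowered the median log2 ratio of the late loci to 1.247 at 3 h and to 1.18 for PTTH over time; under the other 4 settings these lay between 1.43 and 1.71. The split of 9 lower and 16 higher controls was 14 and 23 with a pseudocount of 0.1 FPKM, 5 and 10 with one of 5 FPKM, 13 and 11 with centring, 13 and 12 with upper-quartile scaling and 15 and 9 with a fixed total, so which is larger depends on the scaling. The late loci higher with PTTH at 1 h numbered 82 to 98 under all settings, against 32.7% to 49.99% of tested loci. With a filter at 5 FPKM 21 late loci had another beside them, with none 30, and 30 lay within 50 kb of another. With a pseudocount of 5 FPKM 85 of the 123 were still at least 2-fold higher at 3 h. Depth limits the 19 loci with under 20 implied fragments in a library.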

Other observations

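The 16 loci that met every other condition but stood less than 1.5-fold above the 1 h PTTH library in the 3 h PTTH library are given here as values. These conditions together hold the control down over time, so its course is no finding; in 13 the 3 h control was at least 1.5-fold below the 1 h control. At nscaf3022 779506 to 781988 the libraries had 7.51 FPKM in the 1 h control, 7.09 FPKM in the 1 h PTTH library, 0.789 FPKM in the 3 h control and 7.81 FPKM in the 3 h PTTH library. These values rest on only 8.5, 9.0, 1.0 and 10.5 implied fragments in the same order. At nscaf2883 1863278 to 1863795 the libraries had 307, 313, 140 and 388 FPKM, and at nscaf2770 1009190 to 1010060 they had 954, 1261, 432 and 1140 FPKM. One of the 16, nscaf2674 615917 to 617309, had 14247 FPKM in the 1 h control and is listed at 0 in the 3 h control, and no fold is given. These were chosen for naming after their values were seen.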
